A study of Homo sapiens with 4 samples.

Results

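Aminoacyl-tRNA synthetases were followed in HCT116 cells, a line derived from a human colon carcinoma, on 4 Affymetrix arrays with 1 array per transfection. The genes were taken by symbol from the authors' deposited table, as 36 synthetase symbols or the same symbol with a final 1. They are 20 cytosolic enzymes and 16 mitochondrial enzymes, the latter with symbols ending in 2, out of 20307 genes named in that table. All 36 were found, on 72 of its 42450 probe sets. Probe sets were taken by symbol and not by value, but the 36 symbols were listed with earlier results of these data known.

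All cells were HCT116 and differed in what was transfected. The vector cells received the plasmid pcDNA3.1, and the overexpressing cells received pcDNA3.1-pri-miR663a, the same plasmid with the primary transcript of the microRNA miR663a. The scrambled RNA cells received a single-stranded scrambled RNA as control, and the inhibitor cells a single-stranded miR663a inhibitor. The aim given in the series' design is to find genes that miR663a overexpression lowers and its inhibition raises. Titles of the single-stranded RNA arrays contradict their source, description and genotype labels, which were followed here. If the titles were right instead, each value of inhibitor over scrambled RNA would have the opposite sign. The ratio that the authors' deposited table heads as inhibitor against control equals, within 9.83e-05 on the log2 scale, the array labelled inhibitor by source minus the one labelled scrambled RNA, which is the direction used here. With 1 array per group no value has a replicate error, and differences are given as sizes without a test. The labels do not give the time after transfection.

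An aminoacyl-tRNA synthetase joins an amino acid to its tRNA, so that the ribosome can read a codon as that amino acid. Human cells use one set of these enzymes in the cytosol and another, encoded in the nucleus, inside mitochondria, while GARS and KARS each serve both places. Several cytosolic synthetases sit in a large multisynthetase complex held together by AIMP1, AIMP2 and EEF1E1. Many cytosolic synthetase genes are also targets of ATF4, the transcription factor of the amino acid response, which acts through a composite response element in their promoters.

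The sequence of the mature microRNA, whose primary transcript the overexpression plasmid carried, and the promoter stretches that bear on this family are shown first. The mature microRNA is shown because its seed, bases 2 to 8, is what pairs with target transcripts, and the capitals mark that seed. RefSeq places it on chromosome 20 of GRCh38.p14.

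hsa-miR-663a: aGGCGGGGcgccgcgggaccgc

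Promoter windows of 300 bases, from 250 before the gene's start to 50 after it, were matched in RefSeq (GRCh38.p14) for 30 of the 36 synthetases, some with several starts, giving 39 windows. They were searched on both strands for TGATGCAA, the core of the amino acid response element, a motif chosen after the expression values had been seen. The core was present in 6 of the 30 genes, TARS, IARS, CARS, MARS, AARS and NARS, all cytosolic. By windows this was 6 of the 39, against 0.866% of 35116 windows of all genes. With the sixth base of the core left free, it was also present in GARS and YARS2, and in 3.62% of all windows. Each stretch below holds 60 bases along the gene's strand, with the core in capitals. In NARS the core reads along the gene and in the other 5 it lies on the opposite strand, where it reads TTGCATCA.

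TARS, chr5:33440935-33440994 (+): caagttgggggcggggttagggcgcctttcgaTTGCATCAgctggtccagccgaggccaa

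IARS, chr9:92293677-92293736 (-): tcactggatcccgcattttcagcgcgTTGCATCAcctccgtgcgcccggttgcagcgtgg

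CARS, chr11:3057394-3057453 (-): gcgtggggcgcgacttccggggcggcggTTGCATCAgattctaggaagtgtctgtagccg

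MARS, chr12:57488038-57488097 (+): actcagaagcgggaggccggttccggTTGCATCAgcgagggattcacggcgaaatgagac

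AARS, chr16:70289660-70289719 (-): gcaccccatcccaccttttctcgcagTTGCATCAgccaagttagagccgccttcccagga

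NARS, chr18:57621807-57621866 (-): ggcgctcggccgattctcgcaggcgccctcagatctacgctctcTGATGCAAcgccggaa

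The core lay close to the transcription start in 5 of the 6 genes. It began 13 bases before the start in IARS, 4 before it in MARS and 2 before it in CARS, and 2 bases after the start in TARS and 14 after it in NARS. In AARS it began 187 bases before the start. A match describes the letters and does not show that a factor binds there.

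Levels on each array, as log2 values, were deposited for 29 of the 72 probe sets, covering 15 cytosolic and 5 mitochondrial synthetases. Array medians over 16381 probe sets lay between 4.12 and 4.19. All 15 cytosolic genes and 4 of the 5 mitochondrial genes lay above the median on all 4 arrays, and these 19 genes were counted, a gene's value being that of its probe set whose mean over the arrays was highest. WARS2, the mitochondrial tryptophanyl enzyme, had levels on 1 of its 3 probe sets, between 2.32 and 2.41, and was left out of the counts. That probe set is aligned to 2696 bases, 2.46% of the gene's widest alignment, and the others have no levels. For the other 16 genes only the authors' ratios were available. As a check of the cell line, 7 of 10 colon epithelial markers, of which 8 had levels, lay above the median on all arrays, with KRT18 at 12.97 to 13.20, while of 5 leukocyte markers CD3E, CD79A and ITGAM also lay above it on all arrays, at 4.31 to 5.83, and PTPRC lay at 2.04 to 2.34. The marker sums are given with the cell type values at the end.

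The first comparison asked what differed when miR663a was overexpressed. No counted synthetase differed by 1.5-fold. EARS2, CARS and TARS were lower by more than 1.2-fold, and none was higher by that much. Of 19 genes, 15 lay below the vector level, with a median log2 ratio of -0.09, where 59.6% of 5513 counted genes lay below with a median of -0.05. Among genes above the 75th percentile of both arrays, where 18 synthetases lie, the median was -0.07 for the synthetases and -0.08 for all 3121 genes. At these levels 14 of the 18 synthetases lay below 0, against 70.4% of all genes. The share of genes past 1.5-fold among all those counted was 0.925% higher and 1.65% lower, and past 1.2-fold 8.24% higher and 15.2% lower. The direction depended on scaling, since centring the arrays on their medians put 18 of the 19 below 0, against 73.3% of all counted genes, and quantile normalization 10 of 19, against 45.0%, with EPRS, SARS, MARS, WARS and LARS2 turning above 0 under the latter.

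EARS2, the mitochondrial glutamyl-tRNA synthetase, had the lowest ratio of the counted genes. It measured 7.40 on the vector array, 6.85 with overexpression, 7.20 with scrambled RNA and 7.33 with the inhibitor, a log2 ratio of -0.55 or 1.46-fold lower with overexpression. The overexpression array stood apart from the other 3, which spanned 0.19. Its remaining probe sets did not share this, with log2 ratios of -0.17, -0.01 and 0.16 from the authors' deposited table. The last of these had levels between 3.78 and 4.12, below the array medians.

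CARS, the cysteinyl-tRNA synthetase, measured 9.53 on the vector array, 9.14 with overexpression, 9.49 with scrambled RNA and 9.69 with the inhibitor. It was 1.32-fold lower with overexpression, at -0.40, and 1.15-fold higher with the inhibitor, at 0.20. The overexpression array was the lowest and the inhibitor array the highest of the 4. Of its 4 other probe sets, those aligned inside the gene on short stretches gave log2 ratios of -0.55 and 0.19 over the same 489 bases, from the authors' deposited table. A probe set at the 3′ end of the gene gave -0.10. The last, aligned to the opposite strand and dim at 3.09 to 3.58, gave 0.33. With the inhibitor these 4 were at -0.08, -0.25, 0.03 and 0.17 in the same order, on both sides of 0.

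TARS, the threonyl-tRNA synthetase, has 1 probe set and measured 11.45 on the vector array, 11.13 with overexpression, 11.37 with scrambled RNA and 11.41 with the inhibitor. It was 1.25-fold lower with overexpression, at -0.32, and the other 3 arrays lay within 0.08 of each other. NARS, the asparaginyl enzyme, measured 12.10, 11.88, 12.07 and 12.15 on the same arrays in that order, a log2 ratio of -0.22. IARS, the isoleucyl enzyme, measured 11.90, 11.71, 11.86 and 11.88, a log2 ratio of -0.18. In TARS, NARS and IARS the overexpression array was the lowest of the 4, and the spread of the remaining arrays was smaller than the difference. NARS and IARS also rest on a single probe set each.

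**Figure D1:**
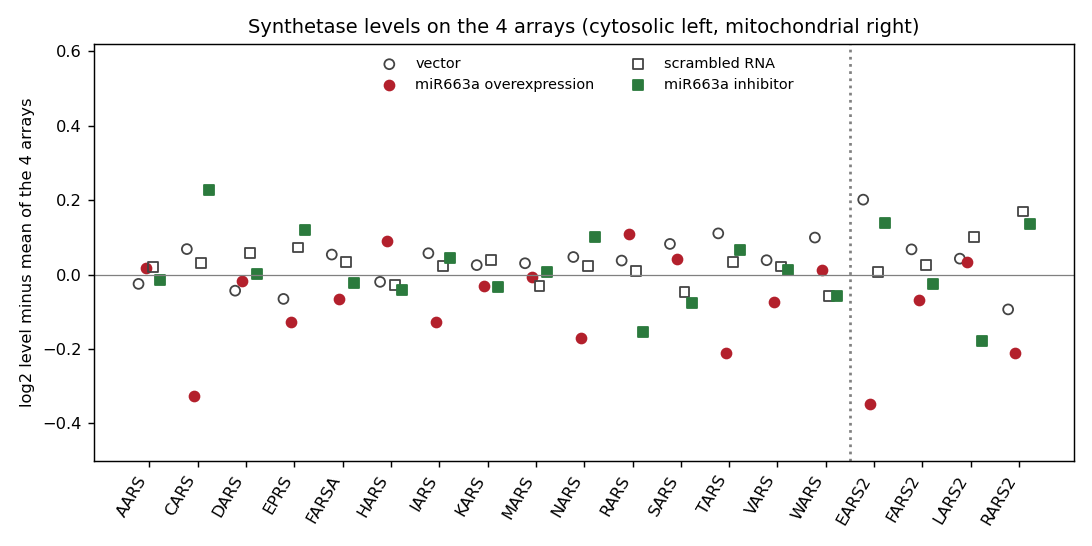
Log2 level of each counted synthetase on each array, minus that gene's mean over the 4 arrays (vertical axis, log2). Circles are plasmid and squares single-stranded RNA transfections, open for controls, with 1 array each. EARS2, CARS and TARS have the overexpression array well below the other arrays, while most other genes lie within a narrow band.

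The highest counted ratios with overexpression were small. HARS, the histidyl enzyme, measured 10.09 on the vector array and 10.20 with overexpression, and RARS, the arginyl enzyme, 10.19 and 10.26. AARS, the alanyl enzyme, measured 10.21 on the vector array and 10.26 with overexpression. DARS, the aspartyl enzyme, measured 11.76 and 11.79, at 0.03. After centring on array medians DARS, AARS and RARS turned below 0. FARS2, the mitochondrial phenylalanyl enzyme, had a log2 ratio of -0.14 on its counted probe set, beside 0.01 and 0.25 on its others. LARS2, the mitochondrial leucyl enzyme, measured 7.69 and 7.68.

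How far 2 probe sets of a gene disagree gives a scale for these sizes. Across 1351 genes with 2 probe sets above the median on all arrays, the difference between their log2 ratios had an SD of 0.28 with overexpression and 0.27 with the inhibitor. Among the 15 genes below 0 with overexpression, only EARS2, CARS and TARS lay further from 0 than that SD. The SD is that of a difference between 2 ratios and not of a single ratio, so it is only a rough scale. This spread is between probe sets on the same arrays and says nothing of the spread between transfections.

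Over all 36 genes and 72 probe sets of the authors' deposited table, 50 probe sets lay below 0 with overexpression. They were 31 of 41 cytosolic and 19 of 31 mitochondrial ones. Of all probe sets, at any level, 52.6% lay below 0. The median log2 ratio was -0.07 for the synthetases, -0.10 for the cytosolic group and -0.04 for the mitochondrial group, against -0.02 for all 42450 probe sets. At 1.5-fold, 1 synthetase probe set was higher and 2 were lower, where 1.77% of all probe sets were higher and 1.76% lower. At 1.2-fold, 3 were higher and 11 lower, of which 9 were cytosolic, where 14.1% and 15.2% of all probe sets passed.

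Each probe set past 1.5-fold belonged to a gene whose other probe sets were closer to 0. EPRS, a single chain with the glutamyl and prolyl enzymes, had 3 probe sets. The one past the threshold measured 7.64 on the vector array, 6.90 with overexpression, 7.73 with scrambled RNA and 7.84 with the inhibitor, 1.67-fold lower at -0.74. On it the overexpression array was the lowest by far. The counted EPRS probe set measured 10.93, 10.87, 11.07 and 11.12 in the same order, at -0.06, though it is aligned to the same span as the first. The remaining one was at -0.13. All 3 EPRS probe sets lay below 0 with overexpression and above 0 with the inhibitor, the latter at 0.11, 0.05 and 0.06.

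FARSB, the beta subunit of the cytosolic phenylalanyl enzyme, had 1 probe set 1.83-fold higher with overexpression in the authors' deposited table, at 0.87. It is aligned 1204 bases further towards the 3′ end of the gene than the next one, which was at -0.04, and the remaining FARSB probe set was at -0.12. With the inhibitor the same 3 were at -0.04, 0.03 and 0.23. FARSA, which encodes the partner alpha subunit, was at -0.12 and -0.31 with overexpression and at -0.06 and -0.04 with the inhibitor. Both subunits of this enzyme thus lay below 0 with overexpression on all probe sets but that one of FARSB.

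SARS, the seryl-tRNA synthetase, had 1 probe set 1.56-fold lower with overexpression and 1.44-fold higher with the inhibitor in the authors' deposited table, at -0.64 and 0.53. That probe set is aligned to 2233 bases near the 5′ end, 9.23% of the gene's widest alignment. A second short one was at -0.23 and 0.09. The SARS probe set with the widest alignment measured 11.02 on the vector array and 10.98 with overexpression, at -0.04. It measured 10.89 with scrambled RNA and 10.86 with the inhibitor, at -0.03. On that probe set SARS therefore differed little in either comparison, while the one aligned to 2233 bases had opposite signs in the 2 comparisons.

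**Figure D2:**
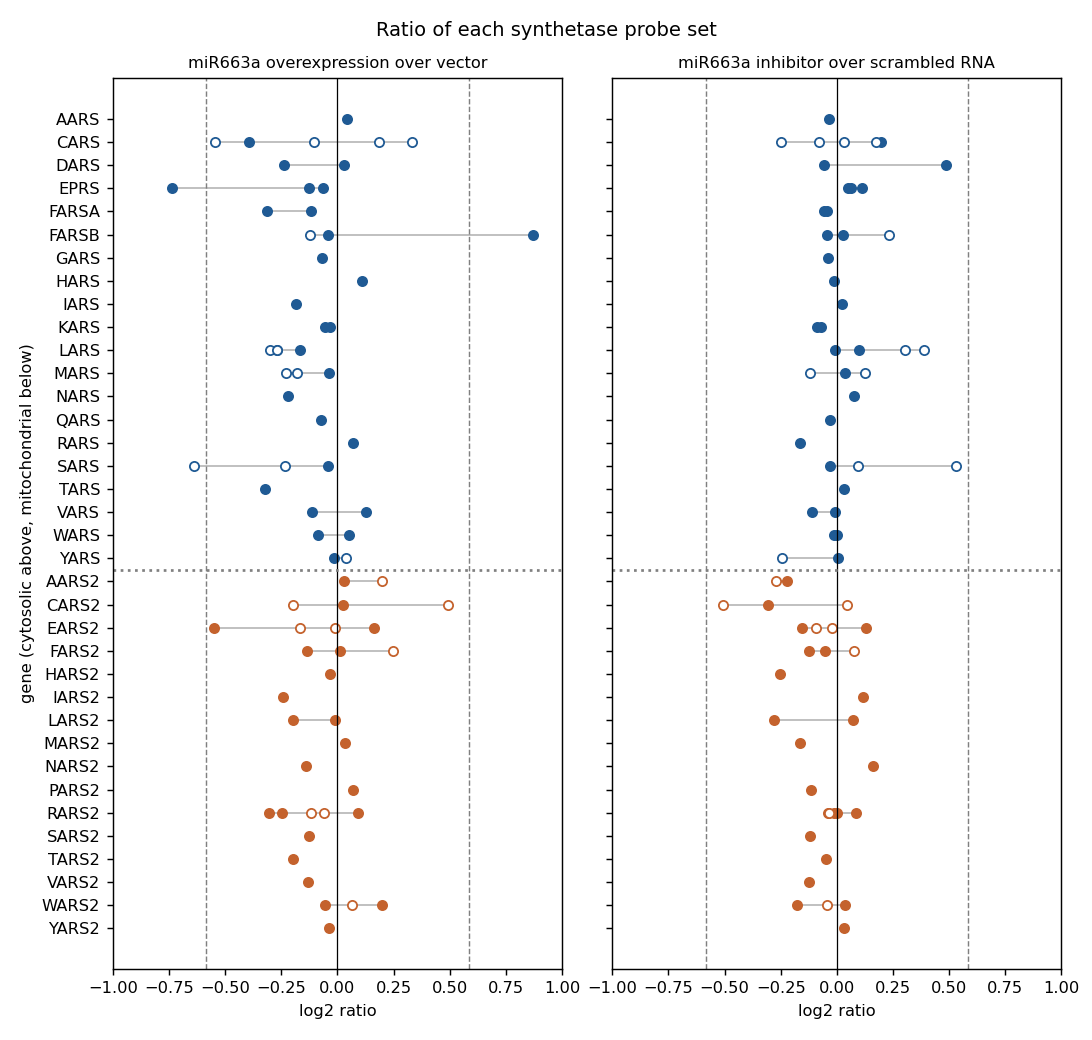
Log2 ratio of each of the 72 synthetase probe sets (horizontal axis) by gene, with overexpression over vector on the left and inhibitor over scrambled RNA on the right. Filled points have alignments covering at least 50% of the gene's widest alignment and open points less. Grey lines join probe sets of a gene, and dashed lines mark 1.5-fold, passed by FARSB upwards and by EPRS and SARS downwards with overexpression.

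Of the 19 genes with several probe sets, 7 lay below 0 on all of them with overexpression, EPRS, FARSA, KARS, LARS, LARS2, MARS and SARS. AARS2, the mitochondrial alanyl enzyme, lay above 0 on both of its probe sets, and the other 11 genes had probe sets on both sides. These counts have no background, since the same was not counted over all genes with several probe sets. Single probe sets lay below 0 in 52.6% of all cases, and counted genes above the 75th percentile of both arrays in 70.4%. The median distance between a gene's lowest and highest log2 ratio was 0.25. LARS, the leucyl enzyme that also senses leucine for the mTORC1 kinase, had more probe sets than any other of these 7 genes. Its 4 ratios in the authors' deposited table corresponded to log2 values of -0.27, -0.30, -0.16 and -0.27 with overexpression. With the inhibitor they were at -0.01, 0.30, 0.10 and 0.39 in the same order. LARS has no level in the value table.

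The second comparison asked what differed when miR663a was inhibited. No synthetase probe set passed 1.5-fold, where 0.737% of all probe sets were higher and 0.714% lower. At 1.2-fold 4 were higher, all cytosolic, and 4 were lower, all mitochondrial, where 9.16% and 11.6% of all probe sets passed. In the 19 counted genes the median log2 ratio was -0.01, against -0.02 for all 5490 genes counted, and 11 of 19 lay below 0, against 54.4% of all. Past 1.5-fold lay 0 of the 19, where 0.528% of all counted genes were higher and 0.237% lower. At 1.2-fold LARS2 was lower and none was higher, where 7.76% and 7.52% of all counted genes were higher and lower. It measured 7.75 with scrambled RNA and 7.47 with the inhibitor, at -0.28, and 7.69 and 7.68 on the plasmid arrays, so that the inhibitor array was the lowest of the 4. The remaining LARS2 probe set was at 0.07.

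RARS measured 10.16 with scrambled RNA and 10.00 with the inhibitor, at -0.16, on its 1 probe set, with the inhibitor array the lowest. KARS, the lysyl enzyme, was at -0.07 and -0.09 on its probe sets, with 12.62 and 12.55 on the counted one. CARS and EARS2 lay highest of the counted genes, at 0.20 and 0.13, the same genes that lay lowest with overexpression. The other EARS2 probe sets were at -0.02, -0.09 and -0.16 with the inhibitor, the opposite side of 0. NARS, EPRS, MARS and TARS followed with log2 ratios of 0.08, 0.05, 0.04 and 0.03. These are all smaller than the SD of the difference between probe sets of a gene.

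DARS had its 2 probe sets apart with the inhibitor. The one that reaches 578 bases further to the 3′ end measured 9.95 on the vector array, 9.72 with overexpression, 9.87 with scrambled RNA and 10.35 with the inhibitor, a log2 ratio of 0.49, or 1.40-fold higher. Its inhibitor array was the highest of the 4. The counted DARS probe set measured 11.76, 11.79, 11.86 and 11.80, at -0.06 with the inhibitor.

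By the median over a gene's probe sets in the authors' deposited table, mitochondrial synthetases lay lower than cytosolic ones in the inhibitor comparison, by a small amount. Of the 16 mitochondrial genes 13 were below 0 and their median log2 ratio was -0.08, and of the 20 cytosolic genes 10 were below 0 and their median was 0.01. All 20307 genes had a median of -0.02, with 55.6% below 0. Lowest were CARS2, HARS2 and AARS2, the mitochondrial cysteinyl, histidyl and alanyl enzymes, at -0.31, -0.25 and -0.25. CARS2 reached -0.51, or 1.42-fold lower, on a probe set aligned to 552 bases, which was 1.41-fold higher with overexpression. The CARS2 probe set with the widest alignment was at -0.31 with the inhibitor and 0.02 with overexpression. Highest were DARS, LARS and NARS2, the mitochondrial asparaginyl enzyme, at 0.21, 0.20 and 0.16. At this level 0 of the 36 passed 1.5-fold in either comparison, against 1.05% of all genes higher and 0.719% lower with overexpression and 0.315% and 0.330% with the inhibitor. At 1.2-fold TARS and LARS were lower with overexpression, where 11.3% of all genes were higher and 10.4% lower. CARS2 was lower with the inhibitor, where 5.58% were higher and 7.50% lower. HARS and HARS2 start 84 bases apart on chromosome 5 and run in opposite directions, and they were at 0.11 and -0.03 with overexpression and at -0.01 and -0.25 with the inhibitor.

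The remaining mitochondrial genes lay on both sides of 0. IARS2, TARS2, NARS2, VARS2, SARS2, YARS2 and HARS2 lay below 0 with overexpression on their only probe set, from -0.24 for IARS2 to -0.03 for HARS2, while PARS2 and MARS2 were at 0.07 and 0.03. RARS2, the mitochondrial arginyl enzyme, had 5 probe sets with overexpression ratios from -0.31 to 0.09 and inhibitor ratios from -0.04 to 0.08. WARS2 had 3, from -0.06 to 0.20 and from -0.18 to 0.04. Among the cytosolic genes without levels, GARS was at -0.07 and -0.04, QARS, the glutaminyl enzyme, at -0.07 and -0.03, and YARS, the tyrosyl enzyme, at a median of 0.01 and -0.12 over its probe sets.

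The selection named in the design, lower with overexpression and higher with the inhibitor, was met in sign by 13 of the 36 gene medians, where 26.3% of all 20307 genes met it. Of these, 10 were cytosolic, namely CARS, DARS, EPRS, FARSB, IARS, LARS, MARS, NARS, SARS and TARS, and 3 mitochondrial, IARS2, NARS2 and YARS2. A further 12 lay below 0 in both comparisons, against 24.6% of all genes, and 11 lay above 0 with overexpression and below with the inhibitor, against 30.8%. None of the 36 lay above 0 in both, against 16.9%. These shares are over genes at any level. Among genes above the 75th percentile of both arrays, 70.4% lay below 0 with overexpression and 53.7% with the inhibitor. The share meeting the selection at such levels was not counted. Signs near 0 also depend on scaling, since quantile normalization turned 5 of the 19 counted genes with overexpression. FARSB and YARS2, both among the 13, were at -0.04 with overexpression and 0.03 with the inhibitor. The comparisons share no array. None of the 13 passed 1.5-fold in either comparison, so none met the selection by size, and a deviation of a single array would enter each ratio in full.

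**Figure D3:**
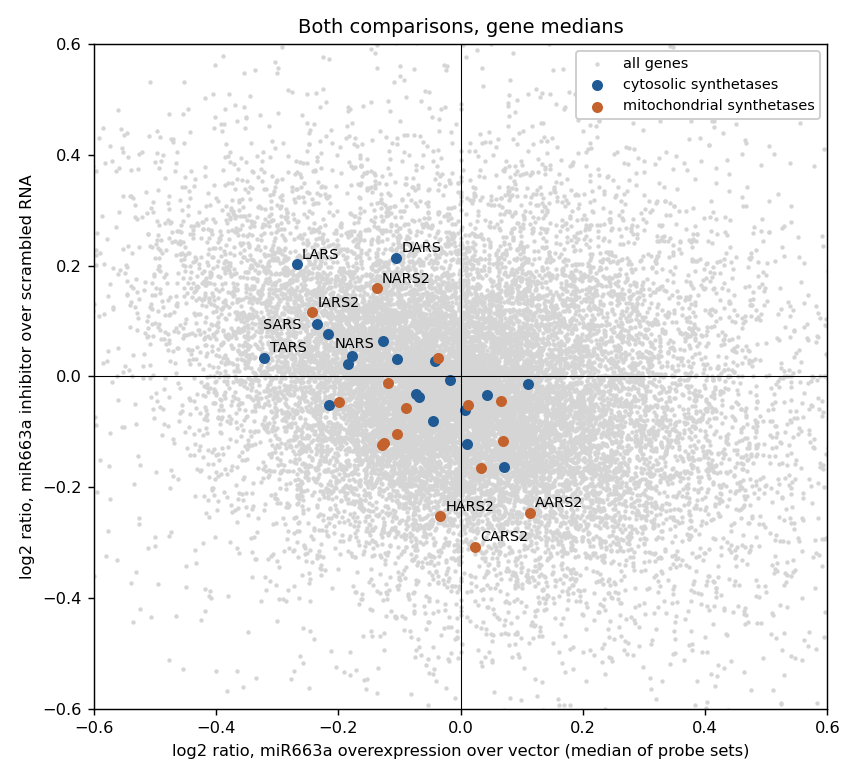
Median log2 ratio over the probe sets of each gene, overexpression over vector (horizontal axis) against inhibitor over scrambled RNA (vertical axis), with all 20307 genes in grey and 405 of them outside the axes. The synthetases lie within the bulk of all genes. LARS, SARS, IARS2, NARS and TARS sit to the upper left and CARS2, HARS2 and AARS2 at the bottom.

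The 6 genes with the response element core shown above had a lower median with overexpression than the other cytosolic genes. Their median log2 ratio, by gene medians, was -0.18, with 5 below 0, from -0.32 for TARS to 0.04 for AARS. The 10 cytosolic genes with a matched window and no core had a median of -0.06, with 8 below 0, and the 14 mitochondrial ones a median of -0.06, with 9 below 0. With the inhibitor the genes with the core had a median of 0.03, with 5 above 0, the cytosolic ones without it a median of -0.02, with 3 above 0, and the mitochondrial ones a median of -0.05, with 3 above 0. Of all genes, 51.2% lay below 0 with overexpression and 55.6% with the inhibitor. The 6 genes with the core all lay above the 75th percentile of the vector and overexpression arrays. At such levels all counted genes had a median of -0.08 with overexpression. The ranges overlapped in both comparisons, and SARS at -0.23 and FARSA at -0.21 had no core in their windows. DARS, LARS, VARS, YARS, AARS2 and VARS2 had no matched window. AARS was the gene with the core that lay above 0 with overexpression, and it turned below 0 after centring on array medians. This grouping was made after the values were seen and carries no test.

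**Figure D4:**
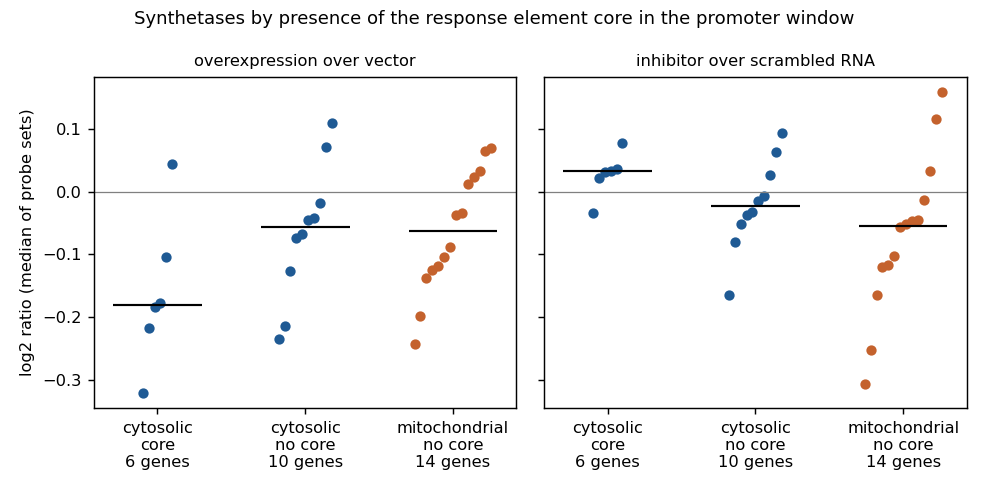
Median log2 ratio of each synthetase with a matched promoter window (vertical axis), for cytosolic genes with the TGATGCAA core, cytosolic genes without it and mitochondrial genes, in both comparisons. Each point is a gene and each bar the group's median. The genes with the core have medians of -0.18 and 0.03, and the groups overlap.

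By role in the cell, differences between groups of cytosolic enzymes were small. The 8 enzymes of the multisynthetase complex had a median log2 ratio by gene medians of -0.12 with overexpression, 7 of them below 0, and 0.03 with the inhibitor. The 12 enzymes outside it had -0.05, with 8 below 0, and -0.01. Class I enzymes, which share a Rossmann fold, had medians of -0.07 and -0.01 over 9 genes, and class II enzymes medians of -0.09 and 0.01 over 10 genes, leaving out EPRS, which joins both classes. By the counted genes' own probe sets these orders with overexpression were the other way, at -0.05 for 6 complex enzymes against -0.11 for 9 others, and at -0.10 for 6 of class I against -0.05 for 8 of class II, so neither split has a firm order. The 12 synthetases listed as targets of the amino acid response had medians of -0.15, with 10 below 0, and 0.03, with 4 below 0. Among all genes the medians were -0.01, with 51.2% below 0, and -0.02, with 55.6% below 0. By counted probe sets, 9 of the 12 listed synthetases had a median of -0.09 with overexpression, with 8 below 0. The median of all 19 counted synthetases was also -0.09. With the inhibitor the 9 had a median of 0.03, against -0.01 for the 19.

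Partners of the synthetases were measured as well. All 7 genes of the complex scaffold and of tRNA delivery were counted, with a median log2 ratio of -0.01 with overexpression and -0.05 with the inhibitor, and none passed 1.2-fold. By gene medians over all probe sets the same 7 genes had -0.09, with 6 below 0, and 0.01, so the size depends on the probe sets used. Over all genes 51.2% of such medians lay below 0 with overexpression. EEF1E1, a scaffold protein of the complex, measured 10.90 on the vector array, 10.72 with overexpression, 10.78 with scrambled RNA and 10.98 with the inhibitor. AIMP2 measured 10.37, 10.21, 10.12 and 10.13, and EEF1D, an exchange factor for the tRNA delivery factor, 12.38, 12.57, 12.54 and 12.36. EEF1G, another subunit of that exchange factor, was at 0.07 and -0.14. Of the mitochondrial partners, 2 of 9 were counted. MTIF2, the initiation factor of mitochondrial translation, measured 10.51, 10.27, 10.40 and 10.56, and TUFM, its elongation factor, 11.58, 11.52, 11.57 and 11.57. In the authors' deposited table QRSL1, a subunit of the enzyme that turns mitochondrial Glu-tRNA into Gln-tRNA, was at a median of -0.20 with overexpression, and TSFM, the exchange factor of TUFM, at -0.09.

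Among 18 other genes of the amino acid response, 10 were counted. Their median log2 ratio was -0.13 with overexpression, with 7 below 0, and 0.08 with the inhibitor, with 7 above 0. Of all counted genes, 59.6% lay below 0 with overexpression, with a median of -0.05, and 54.4% with the inhibitor, with a median of -0.02. Above the 75th percentile of both arrays, 70.4% of genes lay below 0 with overexpression. By gene medians over all probe sets, the 18 genes had -0.04, with 11 below 0, and 0.03, much closer to 0 with overexpression. Among all gene medians 51.2% lay below 0 with overexpression. PSPH, the last enzyme of serine synthesis, measured 9.73 on the vector array, 9.12 with overexpression, 9.49 with scrambled RNA and 9.80 with the inhibitor, with a log2 ratio of -0.61 with overexpression. TRIB3, a pseudokinase that ATF4 induces, measured 7.89, 7.30, 7.40 and 7.55, with a log2 ratio of -0.59. These were 2 of 10 past 1.5-fold, against 1.65% of all counted genes lower. ATF4 itself measured 12.82, 12.76, 12.86 and 12.77, and ASNS, the asparagine synthetase, 11.99, 11.71, 11.88 and 11.99. Over its 2 probe sets, though, ASNS had a median log2 ratio of 0.07 with overexpression, against -0.28 on the one with these levels. TRIB3, though, was also lower on both RNA arrays than on the vector array, and PSPH on the scrambled RNA array. SLC3A2, a chain of amino acid transporters, and ATF3 differed between kinds of transfection, at -0.62 and -0.81 with scrambled RNA over vector.

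Between the control transfections the synthetases lay close together. The log2 difference of scrambled RNA over vector had a median of -0.02 in the 19 counted genes and of -0.01 in all 5515, and past 1.5-fold lay none of the 19, against 0.435% higher and 1.94% lower of all counted genes. RARS2 measured 5.71 with scrambled RNA and 5.45 on the vector array, a log2 difference of 0.26, and was the only one of the 19 past 1.2-fold, where 9.01% of all were higher and 13.7% lower. This difference shares an array with each of the comparisons above. After quantile normalization the median was 0.012, with 12 of 19 above 0, so it has no firm direction.

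Both plasmid arrays lay above both RNA arrays for 4 of the 19 genes, HARS, RARS, SARS and WARS, where 20.0% of 5394 genes above the median on all arrays did. Both lay below for 3, DARS, EPRS and RARS2, against 19.7%. By the mean of each pair of arrays none of the 19 passed 1.5-fold, where 0.871% of those genes were higher with plasmids and 0.241% lower. Past 1.2-fold RARS2 was lower with plasmids, at -0.31, where 8.71% were higher and 5.91% lower. That probe set covers 46.7% of the gene's widest alignment, and on the other 4 RARS2 probe sets the size of this difference was 0.03 to 0.12. WARS, the tryptophanyl enzyme that interferon gamma induces, measured 9.94 and 9.86 on the plasmid arrays and 9.79 and 9.79 on the RNA arrays, and its other probe set 8.62 and 8.68 against 8.43 and 8.42. The probe sets thus both put WARS higher with plasmids, by 0.11 and 0.23. Of 10 interferon genes on the list 7 were counted, among them IRF1 at 7.15 and 6.96 with plasmids and 6.61 and 6.48 with RNA. PSMB9, on the same list, was at 6.75 and 6.78 against 6.99 and 6.91, the opposite way. Their part in the WARS value was not tested. For the 43 synthetase probe sets without levels, the size but not the sign of this difference follows from the authors' sum of squares over the 4 arrays. It had a median of 0.08 and a highest value of 0.39, for FARSB, against a median of 0.11 over all probe sets of that table.

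Of the markers of other cell types, 3 of 5 leukocyte, 1 of 4 endothelial and 1 of 5 fibroblast markers lay above the median on all 4 arrays. They were CD3E, CD79A, ITGAM, PECAM1 and COL1A1. The 5 leukocyte markers lay between 2.04 and 5.83, and their summed linear level was 116 on the vector array, 147 with overexpression, 152 with scrambled RNA and 125 with the inhibitor. The 4 endothelial markers summed to between 60.2 and 70.8 and the 5 fibroblast markers to between 231 and 311, with COL1A1 at 7.48 to 8.05. Colon epithelial markers summed to between 21487 and 22424. The part of these sums in the synthetase values was not tested, and in bulk RNA fewer cells of a kind and less RNA per cell cannot be told apart.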

How the data were processed

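Total RNA, 250 ng per array per the labels' protocols, was measured on 4 arrays, 1 per group. The deposited value table has log2 signals for 16381 probe sets. The authors' deposited table has linear ratios for 42450 probe sets and a score, found here to be the summed squared deviation of each probe set's log2 signals from their mean. MAS5 is named per the submitters' processing notes, and how arrays were scaled to each other is not stated there. For the 12704 shared probe sets the log2 of the ratios differed from the level differences by at most 9.87e-05. Among the value table's probe sets, 3677 have no row in the ratio table and so no name. Of the 42450 probe sets with ratios, 961 name several genes and were left out of gene values.

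A gene's value is that of its probe set highest on average over the 4 arrays, and a gene was counted when above the median of both arrays compared. Folds of 1.5 and 1.2 are descriptive thresholds. No test was run, and the number of arrays limits the precision. The build of the probe set alignments is not given, so only their lengths and distances are used. Genes named are all 36 members, in detail those past 1.5-fold, the 6 highest and lowest ratios, the 4 highest levels per group and up to 4 genes of each other list. Genes outside that rule were named after their values were seen. The members, lists and thresholds were chosen with earlier results of these data known. Alternatives were array centring, quantile normalization, other level filters, an offset of 64, other probe set summaries, folds of 2 and 1.2, RefSeq names and the turned sign. Python 3.11.15, numpy 2.4.6, pandas 2.3.3 and matplotlib 3.10.9 were used, and the counting was tested on simulated data.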

Additional observations from a re-analysis of the deposited data

How the results depend on the processing

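No synthetase passed 2-fold. With the median at -0.09 for overexpression, centring gave -0.16 and put EARS2 past 1.5-fold, 1 gene lower, while quantile normalization gave -0.0030, and the cause was not tested. The remaining alternatives for this median stayed within 0.05 of it. At 1.2-fold 3 genes were lower with overexpression, 1 was lower with the inhibitor and 1 was higher with scrambled RNA over vector, by construction of the lower threshold. With the sign turned, the inhibitor median was 0.0145 by construction. The scrambled RNA over vector median of -0.02 turned to 0.012 after quantile normalization and to 0.0068 with the mean of all probe sets. Using only probe sets aligned to at least 50% of a gene's widest alignment was added after seeing the data and kept both medians within 0.05. No paired analysis was possible because each group has 1 array. The 16 synthetases without levels could not be set against background.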
